A study of Mus musculus with 8 samples.

Results

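UDP-glucuronosyltransferases (UGTs) and cytosolic sulfotransferases (SULTs) were examined in the livers of 8 mice of 3 genotypes. Genes were taken by symbol alone, as every protein-coding gene of the GENCODE M21 mouse annotation whose symbol starts with Ugt1a, Ugt2a, Ugt2b, Ugt3a or Sult. The rule uses no measured value, but it was chosen with earlier results of these data known. This gave 42 genes, all present among the 49585 genes of the count table, with 9 Ugt1a, 3 Ugt2a, 7 Ugt2b, 2 Ugt3a, 6 Sult1 and 9 Sult2 genes and 6 from Sult3 to Sult6. Of the 42 genes, 26 passed the filter on low counts and were tested together with all other genes, 16496 in total. The remaining 16 were too rarely counted to be tested, and counts of differing genes refer to the 26 tested only.

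UGTs sit in the membrane of the endoplasmic reticulum and attach glucuronic acid from UDP-glucuronic acid to bilirubin, steroids, bile acids, fatty acids and drugs. SULTs work in the cytosol and transfer a sulfonate group from 3'-phosphoadenosine-5'-phosphosulfate (PAPS) to phenols, catecholamines, steroid hormones and bile acids. The liver carries out much of both reactions, whose products are more water soluble and leave in bile or urine, and several of the mouse genes are known for expression that differs between males and females or that is induced through the receptors AHR, CAR and PXR.

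The study compared livers with wild-type p53, with 1 Trp53 allele deleted and with 1 allele switched to the missense mutant p53R245W, in males on a high-fat, choline-deficient (HFCD) diet. LP245/+ mice (3 livers) carried Alb-CreTG and Trp53wm-R245W/+, and LPfl/+ mice (2 livers) carried Alb-CreTG and Trp53fl/+. The 3 LP+/+ livers were labelled Alb-Cre0, without the Cre transgene, with the unrecombined Trp53fl/+ genotype in replicates 1 and 2 and the unrecombined Trp53wm-R245W/+ genotype in replicate 3. Alb-Cre acts in hepatocytes and cholangiocytes and leaves p53 intact in the other cells of the liver, and every mouse was fed the diet for 3 months from day 21. The sources differ here. The results text of the study gives LP+/+ mice intact p53 alleles and the Cre transgene, while its methods allow controls with or without Cre. The labels were followed. If the labels are right, the presence of Cre and the loss or change of the allele cannot be told apart.

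RNA of whole liver was sequenced, with 26304526 to 31370714 counted fragments per liver, and the 42 genes together took 0.425% to 0.528% of them. Values are given as CPM, counts per 1000000 counts of a library after TMM normalization. All 10 hepatocyte markers examined were counted in every liver, with a summed level of 117005 to 168464 CPM, against 23.3 to 40.2 CPM for 6 cholangiocyte markers and at most 0.514 CPM for 4 pancreas markers. Trp53 itself was at 7.95, 9.06 and 7.12 CPM in the LP+/+ livers, 4.48 and 6.28 in the LPfl/+ livers, and 11.2, 10.4 and 6.80 in the LP245/+ livers. It was lower in LPfl/+ than in LP+/+ (log2 fold change -0.58, standard error 0.24, unadjusted p 0.0388) and overlapped between LP245/+ and LP+/+. The p53 target Cdkn1a, the 1 gene of all tested with an adjusted p of 0.05 or less and a log2 fold change of 1 or more in size in any comparison, was lower in LP245/+ than in LP+/+ (log2 fold change -2.91, standard error 0.27, edgeR adjusted p 0.0155). The numbers that end the column names of the count table fall into 2 runs, called series of libraries here. What these numbers stand for is not stated in the sources used. The first series holds all LP245/+ livers and LP+/+ replicates 2 and 3, the second both LPfl/+ livers and LP+/+ replicate 1. LP245/+ and LPfl/+ therefore share no series, and in their comparison genotype and series cannot be told apart. In whole tissue, fewer cells of a type and less RNA per cell cannot be told apart either.

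The 9 Ugt1a genes lie in a row on chromosome 1 and are a special case for counting. Each has its own first exon, which codes for the part of the enzyme that binds the substrate, and all are spliced to the same 4 exons that follow, beginning at position 88215044 (GRCm38, plus strand). In the GENCODE M21 transcripts the first exon holds 849 to 870 coding bases and the shared exons 735. The sequences at the junction, with 24 bases of the first exon in lower case and 24 bases of the shared second exon in capitals, show where the genes stop being distinguishable.
Ugt1a1: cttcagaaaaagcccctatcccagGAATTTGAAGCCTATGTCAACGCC
Ugt1a6a: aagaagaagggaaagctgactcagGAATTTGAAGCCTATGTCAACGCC
Ugt1a6b: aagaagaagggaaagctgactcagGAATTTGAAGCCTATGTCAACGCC
Ugt1a7c: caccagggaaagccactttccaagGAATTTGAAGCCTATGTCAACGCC
The capitals are identical in all 9 genes, and Ugt1a6a and Ugt1a6b do not differ in the bases before them either. The same holds for Ugt1a2 and Ugt1a5, which are not shown. STAR gene counts leave out fragments that overlap more than 1 gene, so a Ugt1a count comes from bases that belong to that gene alone. In 6 genes these are as many as the bases of the first exon, and Ugt1a10 has 23 more. Ugt1a6a and Ugt1a7c have 2142 and 1915 bases of their own against first exons of 954 and 915, so their counts need not come from the first exon. Of all transcript windows of 76 bases, the read length used, 21.2% of those of Ugt1a1, 25.4% of Ugt1a6b and 48.9% of Ugt1a6a were found in no other gene on either strand. The first exon of Ugt1a1 is partly covered on the opposite strand by Gm20528, and the sources used here do not give whether strand was used in counting.

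The 7 Ugt2b genes form a cluster on chromosome 5 that also holds Ugt2a3. Ugt2b5, Ugt2b36, Ugt2b37 and Ugt2b38 are close relatives with alike promoters, and their mean levels in these livers were 310.2, 289, 0.479 and 1.39 CPM per kilobase. The RefSeq sequence from 80 bases before to 50 bases after the start (GRCm38.p6, minus strand) is shown for the 4 genes, with AGGTCA, the core letters of the sites that many nuclear receptors bind, in capitals.
Ugt2b5, chr5:87140291-87140420: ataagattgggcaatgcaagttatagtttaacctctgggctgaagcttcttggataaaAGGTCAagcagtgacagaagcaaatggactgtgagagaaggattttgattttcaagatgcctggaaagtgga
Ugt2b36, chr5:87092506-87092635: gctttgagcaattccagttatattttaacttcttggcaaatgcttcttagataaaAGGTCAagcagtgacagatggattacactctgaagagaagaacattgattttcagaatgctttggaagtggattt
Ugt2b37, chr5:87254739-87254868: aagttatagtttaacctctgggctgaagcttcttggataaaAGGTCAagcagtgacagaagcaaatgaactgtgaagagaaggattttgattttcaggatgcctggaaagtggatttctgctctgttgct
Ugt2b38, chr5:87424154-87424283: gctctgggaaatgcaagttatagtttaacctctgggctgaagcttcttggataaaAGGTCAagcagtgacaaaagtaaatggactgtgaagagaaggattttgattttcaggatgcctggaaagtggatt
AGGTCA begins 22 to 39 bases before the start in all 4. With gaps counted as differences, Ugt2b5 and Ugt2b38 were identical in 121 of 134 alignment columns (90.3%), and Ugt2b36 and Ugt2b37 in 95 of 144 (66.0%). The gaps include ends that overhang because the stretches are offset, so these shares do not rank the pairs by likeness. RefSeq windows of 300 bases were found for 36 of the 42 genes, 39 windows in all, of which 10 (25.6%) held AGGTCA on either strand, against 16.3% of all 32817 promoter windows. GTTAAT, the core letters of the HNF1 site, was in 13 of the 39 (33.3%), against 7.10% of all windows, and 8 of the 13 belonged to tested genes. The promoters of Ugt1a1, Ugt1a6a, Ugt2a3 and Sult1a1 were among them, as were those of Sult2a3 to Sult2a6 and Sult3a2, too rarely counted to be tested. TTCNNNGAA, the site of STAT5, was in 2 (5.13%), against 8.29%. GCGTG, the core letters of the xenobiotic response element, was in 6 (15.4%), against 32.4%. TATAAA, the TATA box, was in 11 (28.2%), against 13.6%. Neighbouring genes arose by duplication and their windows are not independent, and a match of letters is not a measured binding site.

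Levels were compared between genes as CPM per kilobase of exonic sequence that belongs to 1 gene only (mean ± SD over the 8 livers). Ugt2b5 (chromosome 5, 87124960 to 87140318) was highest with 310.2 ± 42.9 CPM per kilobase, followed by Sult2a8 (chromosome 7, 14410686 to 14446769) with 289 ± 57.8 and Ugt2b36 with 289 ± 45.4. The ranges of these 3 genes over the livers overlapped, so their order is not fixed, and together they made up 43.2% to 49.0% of the summed level of the 26 genes. Ugt2b5 and Ugt2b36 glucuronidate steroids and other substrates, and Sult2a8 is a liver sulfotransferase of bile acids. Next came Ugt2a3 (175 ± 16.9), the phenol sulfotransferase Sult1a1 (157 ± 21.7), Ugt2b1 (147 ± 38.7) and Ugt3a2 (137 ± 10.1), an enzyme of the UGT family that uses sugars other than glucuronic acid. Ugt2b34 (97.7 ± 7.55) and Ugt1a1 (92.5 ± 18.6), the bilirubin glucuronidating enzyme, had alike means, and Ugt1a6b, a phenol glucuronidating enzyme, followed with 67.6 ± 8.95. The 10 highest genes held 89.1% to 91.1% of the summed level in each liver.

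**Figure D1:**
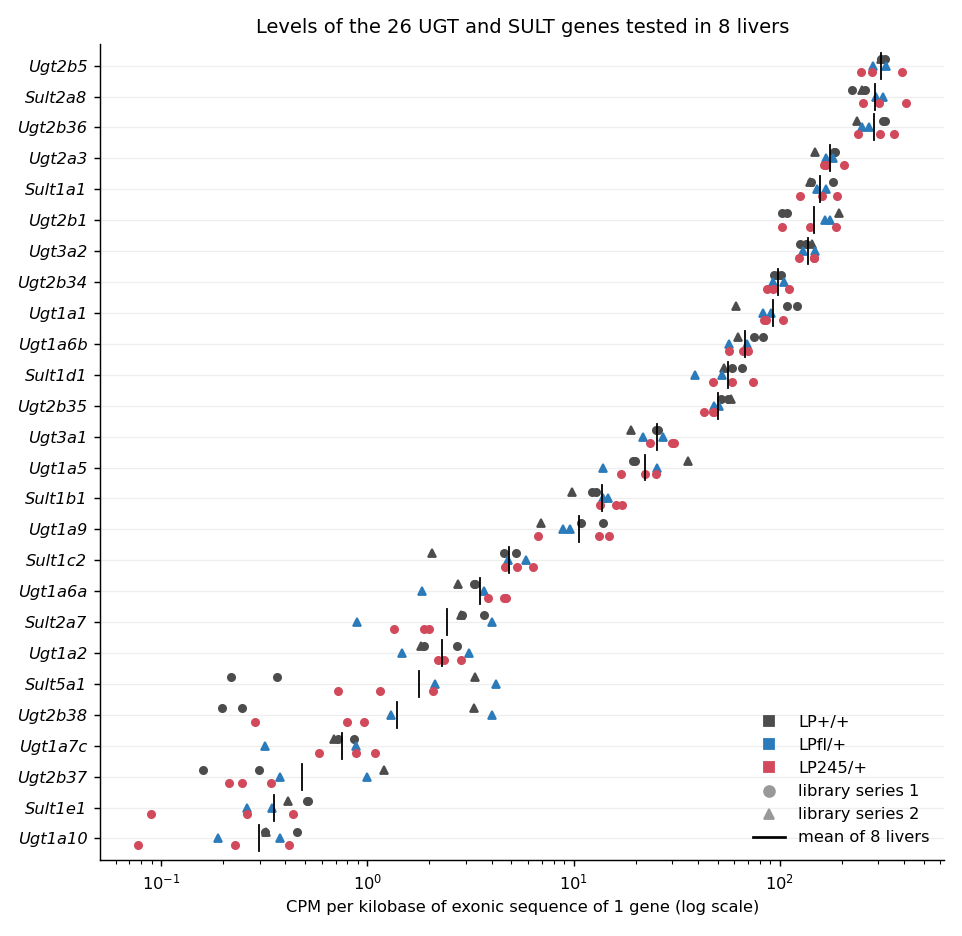
Levels of the 26 UGT and SULT genes tested, in CPM per kilobase of exonic sequence of 1 gene on a log axis, with 1 symbol per liver coloured by genotype, shaped by library series, and a bar at the mean of the 8 livers. The genes span from 0.297 (Ugt1a10) to 310.2 (Ugt2b5), the genotypes lie on top of each other for most, and Sult5a1, Ugt2b38 and Ugt2b37 are the most spread.

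Within the families the levels were uneven. Ugt1a1 and Ugt1a6b stood above the other 6 tested Ugt1a genes, which ranged from 0.297 (Ugt1a10) to 22.3 (Ugt1a5) CPM per kilobase, and Ugt1a6a (3.51 ± 0.939) was far below its near copy Ugt1a6b. Ugt3a1 (25.4 ± 4.0) was below Ugt3a2. Among the SULTs, Sult1d1 (56.3 ± 10.9), a catecholamine sulfotransferase, and Sult1b1 (13.8 ± 2.30), which sulfates thyroid hormone and phenols, stood between Sult1a1 and Sult1c2 (4.86 ± 1.29). The estrogen sulfotransferase Sult1e1 was near the limit of counting, with 0.352 ± 0.145, and Sult2a7 (2.44 ± 1.10) was the only tested neighbour of Sult2a8. The summed CPM of all 42 genes was 4173 to 5635, and the highest value belonged to LP245/+ replicate 3, where Sult2a8, Ugt2b5 and Ugt2b36 were highest as well.

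The 16 genes that were not tested were nearly silent. At 0 counts in every liver were 5 of them, Ugt2a1, Sult1c1, Sult2a3, Sult2a4 and Sult2a5, which allows each a share of at most 1.14e-05% of the counts in the least deeply counted liver, at 3 counts and for counting error only. No liver had more than 3 counts for 13 of the 16. Above that were Ugt1a8, with 11 counts in LP245/+ replicate 1 and at most 2 in the others, Sult3a1, with 10 counts in LP+/+ replicate 2 and at most 3 in the others, and Sult6b1, with 0, 6 and 3 counts in the LP+/+ livers, 3 and 2 in those of LPfl/+, and 11, 6 and 9 in those of LP245/+. These 3 genes are named after their counts were seen. The hydroxysteroid sulfotransferases Sult2a1 to Sult2a6 had 0 to 2 counts in each liver and Sult3a1 and Sult3a2 at most 10, and Sult2a1 and Sult3a1 are known as genes of the female mouse liver. Ugt2a1 and Ugt2a2 share nearly all of their sequence, with 30 and 140 bases of their own, so few fragments could be assigned to either. Sult2a2, with 53.3% of its windows in no other gene, is uncertain as well.

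Between genotypes, 0 of the 26 tested genes passed the cutoff of an adjusted p of 0.05 or less (edgeR) together with a log2 fold change of 1 or more in size, in any of the 3 comparisons, where 0.00606%, 0% and 0% of all tested genes passed. The smallest adjusted p of the 26 genes was 0.795 between LP245/+ and LP+/+, 0.744 between LPfl/+ and LP+/+ and 0.537 between LP245/+ and LPfl/+. DESeq2 also placed 0 of the genes past the cutoff, and gave an unadjusted p below 0.05 to 5, 0 and 2 of the 36 genes it kept, against 2.7%, 3.13% and 4.11% of all genes. With edgeR at an unadjusted p below 0.05, 3 of 26 (11.5%) differed between LP245/+ and LP+/+, against 5.93% of all tested genes. For LPfl/+ and LP+/+ the count was 0 of 26, against 6.89%, and for LP245/+ and LPfl/+ 1 of 26 (3.85%), against 8.51%. The median log2 fold change of the 26 genes was 0.03, -0.01 and 0.03 in the 3 comparisons, beside 0.00 over all genes in each.

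**Figure D2:**
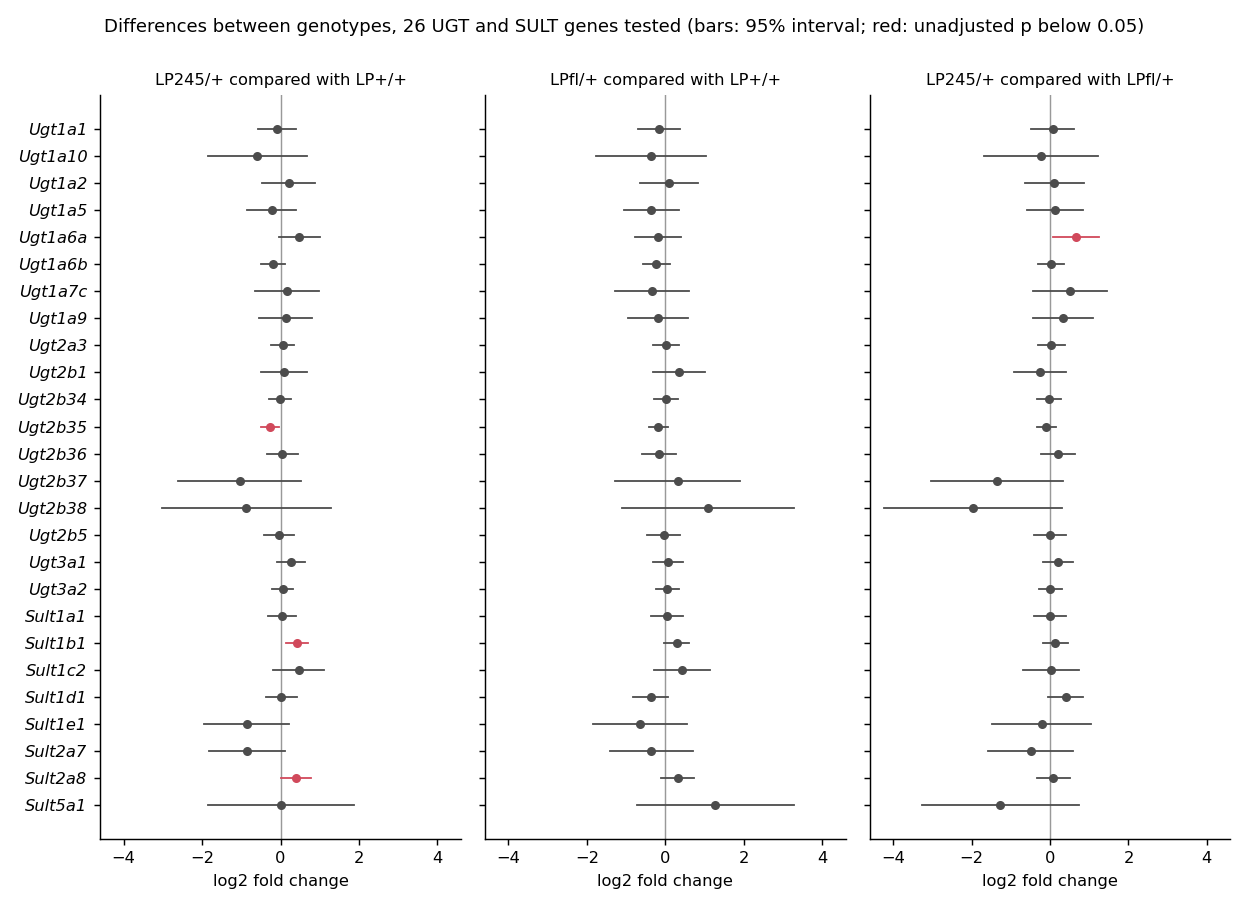
Log2 fold changes of the 26 tested genes in the 3 comparisons between genotypes, with 95% intervals from the edgeR fit. Red marks an unadjusted p below 0.05. Sult1b1, Sult2a8 and Ugt2b35 are red in LP245/+ compared with LP+/+ and Ugt1a6a in LP245/+ compared with LPfl/+, and the widest intervals belong to Ugt2b37, Ugt2b38 and Sult5a1.

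In LP245/+ compared with LP+/+ the smallest p belonged to Sult1b1 (chromosome 5, 87513339 to 87538195, GRCm38). Its level was 27.3, 35.6 and 34.2 CPM in LP+/+ replicates 1 to 3, 40.7 and 38.6 in LPfl/+ replicates 1 and 2, and 48.0, 37.5 and 44.7 in LP245/+ replicates 1 to 3. Every LP245/+ liver was above every LP+/+ liver, and the LPfl/+ livers lay above LP+/+ as well. The difference was 0.42 on the log2 scale (standard error 0.13, unadjusted p 0.00765, adjusted p 0.795), and the unadjusted p stayed below 0.05 in all 16 alternatives run. Within the first series of libraries the ratio was 0.32. Ugt2b35 (chromosome 5, 87000860 to 87013275) was lower in LP245/+. It was measured at 194, 175 and 189.7 CPM in the LP+/+ livers, 161 and 170.0 in the LPfl/+ livers, and 145, 159.6 and 162 in the LP245/+ livers, so neither LP245/+ nor LPfl/+ overlapped LP+/+. The log2 fold change was -0.26 (standard error 0.10, unadjusted p 0.026, adjusted p 0.801) in LP245/+ and -0.17 (standard error 0.11, unadjusted p 0.156) in LPfl/+. Over the 8 livers Ugt2b35 and Sult1b1 ran opposite to each other, with r = -0.91 on log2 CPM and -0.71 on deviations from the genotype means, which describes libraries that share genotype and series. For Ugt2b35 the unadjusted p was 0.05 or higher without LP+/+ replicate 1, without LP+/+ replicate 3, without LP245/+ replicate 1 and with the series of libraries as a covariate, reaching 0.0815 at most.

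Sult2a8 was highest in LP245/+ replicate 3, while the other LP245/+ livers lay below LPfl/+ replicate 2. Its CPM were 829, 738 and 852 in the LP+/+ livers, 964 and 1038 in those of LPfl/+, and 995, 834 and 1349 in LP245/+. LP245/+ replicate 2 lay within the range of LP+/+, and the difference was 0.39 (standard error 0.17, unadjusted p 0.0438, adjusted p 0.831). Without LP245/+ replicate 3, the liver with the highest value, the log2 fold change was 0.17 and the unadjusted p 0.227. The unadjusted p was 0.05 or higher in 9 of 16 alternatives, 7 of which left out 1 liver, all but LP245/+ replicate 2. Its neighbour Sult2a7 was measured at 3.63, 4.72 and 3.67 CPM in the LP+/+ livers, 5.12 and 1.14 in the LPfl/+ livers, and 2.53, 2.41 and 1.72 in the LP245/+ livers. All LP245/+ livers were below LP+/+ for this gene, while the 2 LPfl/+ livers stood at the 2 ends of the range, and the difference did not pass (log2 fold change -0.85, standard error 0.43, unadjusted p 0.077).

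**Figure D3:**
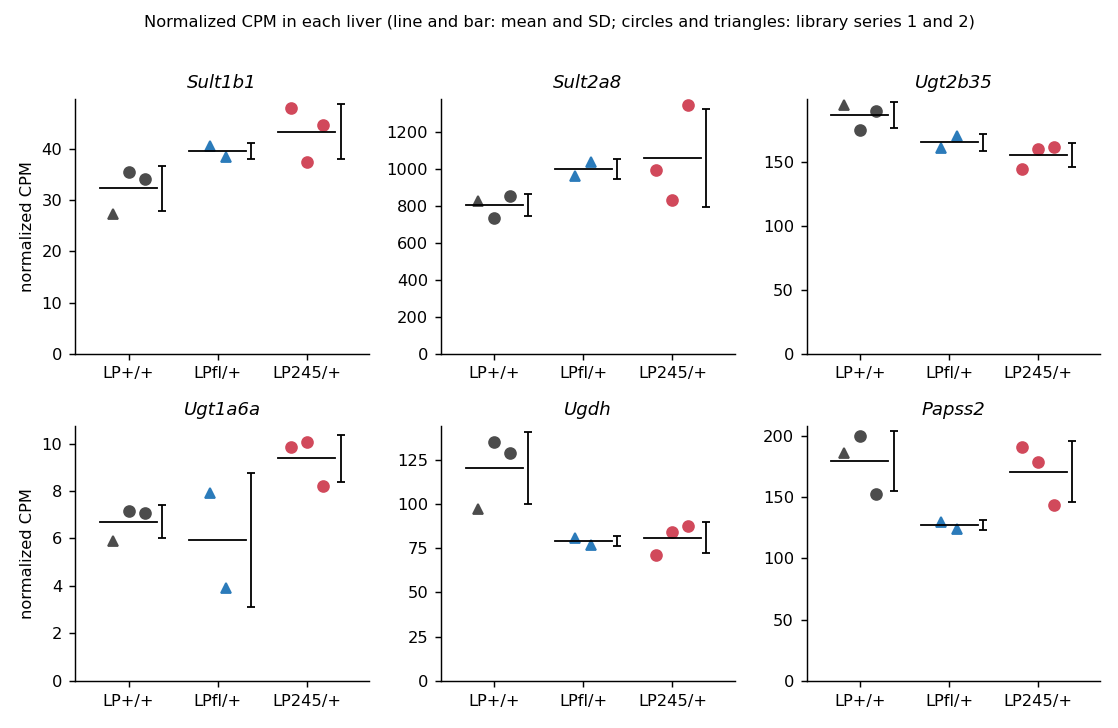
Normalized CPM per liver of the 4 genes with an unadjusted p below 0.05, Sult1b1, Sult2a8, Ugt2b35 and Ugt1a6a, and of Ugdh and Papss2, which supply the cosubstrates, with the mean and SD of each genotype. Ugdh is at 97.1 CPM or more in LP+/+ and at 87.5 or less in the other livers, and Papss2 is lowest in the 2 LPfl/+ livers.

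In the count of genes whose livers did not overlap, the 26 genes stood near or below the background. LP245/+ and LP+/+ did not overlap for 4 of 26 genes (15.4%), Sult1b1 and Ugt1a6a being higher and Ugt2b35 and Sult2a7 lower, against 11.6% of all genes. LPfl/+ and LP+/+ did not overlap for 5 of 26 (19.2%), against 24.9%. These were Sult1b1 and Sult2a8, higher in LPfl/+, and Ugt2b35, Sult1d1 and Sult1e1, lower. LP245/+ and LPfl/+ did not overlap for 4 of 26 (15.4%), against 25.4%, with Ugt1a6a higher and Ugt2b37, Ugt2b38 and Sult5a1 lower in LP245/+.

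Ugt1a6a, which glucuronidates small phenols, was the 1 UGT or SULT gene with an unadjusted p below 0.05 between LP245/+ and LPfl/+. It was measured at 5.91, 7.14 and 7.08 CPM in the LP+/+ livers, 7.91 and 3.93 in the LPfl/+ livers, and 9.84, 10.1 and 8.23 in the LP245/+ livers. The 2 LPfl/+ livers differed more from each other than the LP245/+ livers did, and LPfl/+ replicate 2 alone lay below LP+/+. The log2 fold change was 0.66 (standard error 0.26, unadjusted p 0.0305, adjusted p 0.537), and without LPfl/+ replicate 2 it was 0.25. The unadjusted p was 0.05 or higher in 4 of 16 alternatives, 3 of which left out 1 liver, reaching 0.373 at most (edgeR). Against LP+/+, Ugt1a6a was higher in LP245/+ by 0.48 (standard error 0.23, unadjusted p 0.0628), with no overlap of the livers. For its near copy Ugt1a6b the log2 fold change was 0.03 (standard error 0.15) against LPfl/+ and -0.19 (standard error 0.13) against LP+/+, and whether the 2 genes differ was not tested.

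As a family, Ugt1a showed no call in LPfl/+ compared with LP+/+, where 7 of the 8 tested genes had estimates below 0 and the median was -0.21, while 49.8% of all genes had an estimate above 0. Within the second series of libraries, against LP+/+ replicate 1 alone, 5 of the 8 ratios were above 0 and 3 below, Ugt1a6a and Ugt1a6b being at 0.00. In LP245/+ compared with LP+/+ the estimates were 4 above and 4 below 0, with 50.6% of all genes above. In LP245/+ compared with LPfl/+, 7 of 8 lay above 0 with a median of 0.12, beside 50.8% of all genes. These comparisons share livers. Ugt1a2, Ugt1a5, Ugt1a6a, Ugt1a6b and Ugt1a7c were lowest in LPfl/+ replicate 2. For Ugt1a6b the margin was small, at 53.3 CPM against 53.4 in LP245/+ replicate 1. Ugt1a7c was at 1.32, 1.38 and 1.65 CPM in the LP+/+ livers, 1.68 and 0.607 in the LPfl/+ livers, and 2.09, 1.11 and 1.68 in the LP245/+ livers. Its difference between LP245/+ and LPfl/+ was 0.51 (standard error 0.42, unadjusted p 0.256).

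Several of the abundant genes were measured with narrow intervals. Ugt2b5 was at 577, 576 and 603 CPM in the LP+/+ livers, 612 and 529 in the LPfl/+ livers, and 461, 520.0 and 731 in the LP245/+ livers, and its log2 fold change against LP+/+ was -0.04 in LP245/+ (95% interval -0.41 to 0.34) and -0.04 in LPfl/+ (95% interval -0.45 to 0.38). Ugt3a2 varied least of the 26 genes, between 387 and 459.9 CPM, and its 95% interval in LP245/+ compared with LP+/+ ran from -0.21 to 0.32. Intervals of the same comparison ran from -0.28 to 0.26 for Ugt2b34, -0.24 to 0.35 for Ugt2a3, -0.34 to 0.44 for Ugt2b36 and -0.33 to 0.41 for Sult1a1. All of these intervals lay within 1 log2 unit of 0. Ugt3a1 was at 51.0, 68.8 and 67.4 CPM in the LP+/+ livers, 72.5 and 58.1 in the LPfl/+ livers, and 62.5, 80.5 and 82.3 in the LP245/+ livers, with a difference of 0.27 (standard error 0.15, unadjusted p 0.115) in LP245/+. Sult1d1 was lower in both LPfl/+ livers (129 and 95.9 CPM) than in any LP+/+ liver (131, 162 and 144 CPM), with a log2 fold change of -0.37 (standard error 0.20, unadjusted p 0.0917). Sult1e1, at 0.110 to 0.640 CPM and 101 counts over all livers, had a difference of -0.86 with a standard error of 0.48 in LP245/+.

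**Figure D4:**
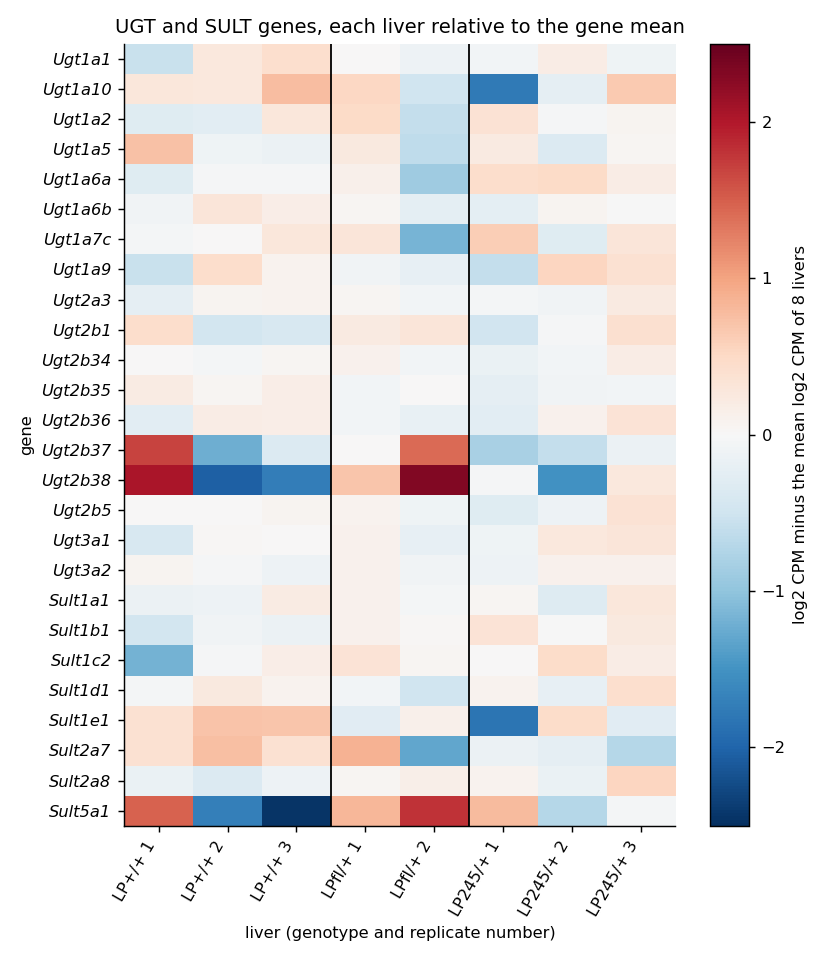
Log2 CPM of the 26 tested genes in each of the 8 livers, as the difference from the mean of the gene over the livers, from blue (lower) to red (higher), with black lines between the genotypes. Most genes are pale in every liver, and Ugt2b37, Ugt2b38 and Sult5a1 vary together, red in LP+/+ replicate 1 and LPfl/+ replicate 2 and blue in LP+/+ replicates 2 and 3.

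Ugt2b37, Ugt2b38 and Sult5a1 varied widely, also between livers of 1 genotype. Ugt2b38 (chromosome 5, 87409942 to 87424203) was measured at 6.25, 0.371 and 0.463 CPM in LP+/+ replicates 1 to 3, 2.47 and 7.60 in LPfl/+ replicates 1 and 2, and 1.51, 0.539 and 1.82 in LP245/+ replicates 1 to 3, a 20.5-fold range over the 8 livers and a 16.9-fold range within LP+/+. Sult5a1 (chromosome 8, 123140192 to 123158315) was at 14.7, 1.62 and 0.960 CPM in the LP+/+ livers, 9.38 and 18.5 in the LPfl/+ livers, and 9.14, 3.20 and 5.08 in the LP245/+ livers, a 19.3-fold range over the 8 livers and 15.3-fold within LP+/+. Both genes were high in LP+/+ replicate 1 and LPfl/+ replicate 2, low in LP+/+ replicates 2 and 3, and between in the LP245/+ livers. Ugt2b37 was at 2.28, 0.303 and 0.563 CPM in the LP+/+ livers, 0.716 and 1.89 in the LPfl/+ livers, and 0.404, 0.467 and 0.644 in the LP245/+ livers, with the same livers at the top. Over the 8 livers the coefficient of variation was 106% for Ugt2b38, 82.0% for Ugt2b37 and 80.8% for Sult5a1, and only 0.558%, 1.30% and 1.35% of all tested genes had a higher one. The median was 22.4% over the 26 genes and 16.2% over all tested genes. Ugt2b37 had only 9 to 67 counts per liver and Ugt2b38 11 to 213, and their spread was not set against genes of a like level. On log2 CPM over the 8 livers, r was 0.93 between Ugt2b38 and Sult5a1 and 0.89 between Ugt2b37 and Ugt2b38, and 0.94 and 0.92 on deviations from the genotype means. Sult5a1 lies on chromosome 8 and the Ugt2b genes on chromosome 5. Of the 76-base windows of Ugt2b38, 72.2% were found in no other gene, and the part of shared fragments in its values was not tested.

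Ugt2b1, far more abundant, had the same order of the LP+/+ livers as Ugt2b38 with a smaller range. It was at 498, 265 and 279.9 CPM in the LP+/+ livers, 427 and 454 in the LPfl/+ livers, and 264, 361 and 485 in the LP245/+ livers. Ugt1a1 ran the opposite way, with 56.1, 99.2 and 111 CPM in the LP+/+ livers, 83.2 and 75.7 in the LPfl/+ livers, and 78.7, 94.8 and 76.8 in the LP245/+ livers. In LP+/+ replicate 1 Ugt1a1 was lowest and Ugt2b1 highest of all 8 livers, and r between Ugt1a1 and Ugt2b38 was -0.86 (-0.95 on deviations from the genotype means). Sult1c2 was also lowest in LP+/+ replicate 1, with 3.80, 8.46 and 9.66 CPM in the LP+/+ livers, 10.9 and 8.85 in the LPfl/+ livers, and 8.63, 11.8 and 9.77 in the LP245/+ livers. Not every Ugt1a gene went with Ugt1a1. Ugt1a5 was at 31.9, 17.8 and 17.3 CPM in the LP+/+ livers, with r of -0.58 to Ugt1a1 and 0.24 to Ugt2b38. Ugt2b1 and Ugt2b38 are known as UGTs of the male mouse liver and Ugt1a1 as one that is higher in females. These genes were named for their level or spread, and a full list of sex-biased UGT and SULT genes was not examined.

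Most of the genes examined outside the group that are known for sex differences in mouse liver varied with Ugt2b38, Sult5a1 and Ugt1a1. Of 9 female-biased genes tested outside the group, 9 had a negative r with Ugt2b38 over the 8 livers (median -0.84), and of 13 male-biased genes 11 had a positive one (median 0.72). For Sult5a1 the counts were 9 of 9 (median -0.72) and 11 of 13 (median 0.70). For Ugt1a1 the signs were turned, with 8 of 9 positive and 11 of 13 negative. Cyp2b9, Hsd3b5 and Selenbp2 are given as examples chosen after their values were seen. The female-biased cytochrome P450 Cyp2b9 was at 2.51, 312 and 293 CPM in the LP+/+ livers, 37.1 and 8.10 in the LPfl/+ livers, and 64.4, 129.5 and 39.9 in the LP245/+ livers. The male-biased Hsd3b5, a steroid dehydrogenase, was at 347, 45.7 and 99.5 CPM in the LP+/+ livers, 239 and 306 in the LPfl/+ livers, and 204, 145 and 296 in the LP245/+ livers, and Selenbp2 at 625, 14.7 and 46.5 CPM in the LP+/+ livers, 172 and 557 in the LPfl/+ livers, and 81.0, 47.5 and 62.5 in the LP245/+ livers. LP+/+ replicates 2 and 3 thus had the highest Cyp2b9 and the lowest Hsd3b5 and Selenbp2, and LP+/+ replicate 1 the reverse. All 8 libraries share the tissue and diet, and LP+/+ replicate 1 was in another series of libraries than LP+/+ replicates 2 and 3. The part of the series in these differences was not tested.

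**Figure D5:**
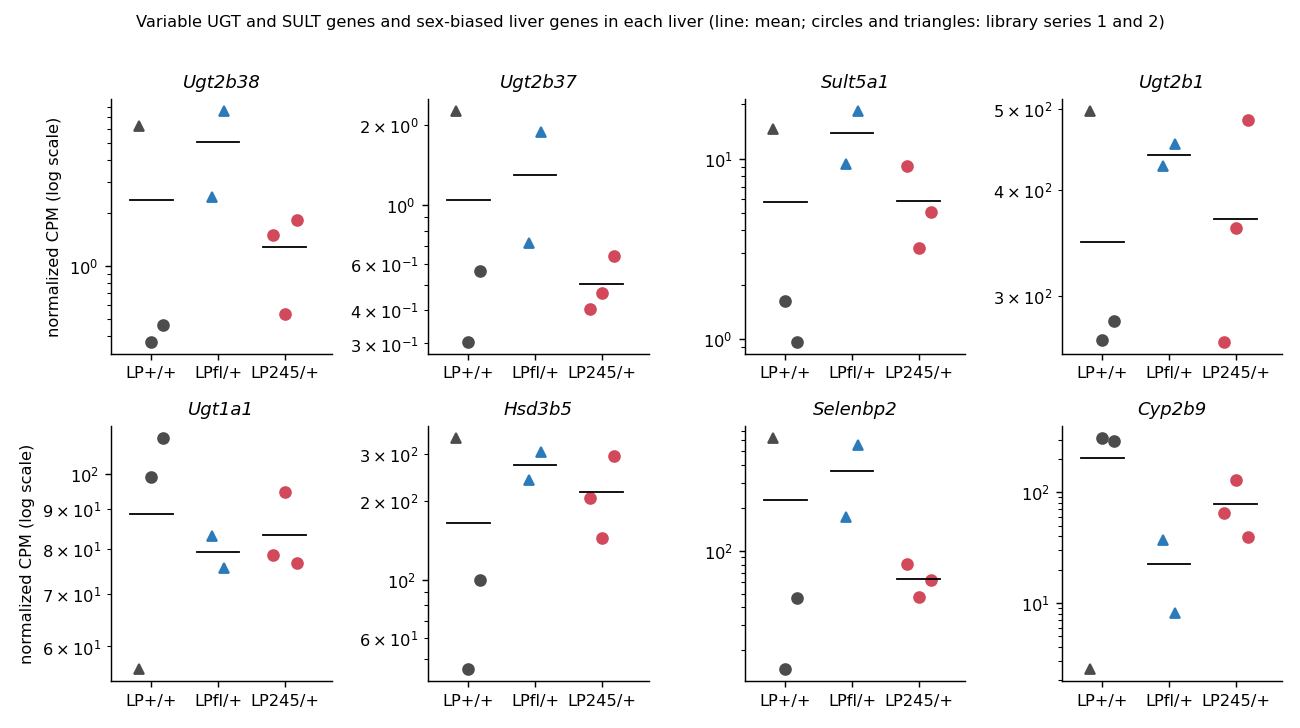
Normalized CPM per liver, on log axes, of Ugt2b38, Ugt2b37, Sult5a1, Ugt2b1 and Ugt1a1 beside the sex-biased genes Hsd3b5, Selenbp2 and Cyp2b9, with a line at the mean of each genotype and triangles for the second series of libraries. Among the LP+/+ livers the triangle is at the top for the Ugt2b genes, Sult5a1, Hsd3b5 and Selenbp2 and at the bottom for Ugt1a1 and Cyp2b9.

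For these genes the pooled comparisons and those within a series of libraries gave different values. For Ugt2b38 the log2 fold change was -0.87 (standard error 0.96) in LP245/+ and 1.09 (standard error 0.98) in LPfl/+ against LP+/+, but the ratio within the series of libraries was 1.63 and -0.31, with the sign turned in both. For Sult5a1 the pooled values were 0.02 (standard error 0.83) and 1.28 (standard error 0.89) and the values within series 2.17 and -0.07. Ugt1a1 had -0.09 (standard error 0.22) and -0.16 (standard error 0.24) pooled, and -0.34 and 0.50 within series. Without LP+/+ replicate 1, Sult5a1 passed the cutoff in LPfl/+ compared with LP+/+, with a log2 fold change of 3.43 (edgeR adjusted p 0.0233), and Ugt2b38 had 3.58 (adjusted p 0.0545), where 0.362% of all genes passed. In that fit LPfl/+ and the remaining LP+/+ livers share no series of libraries, so genotype and series cannot be told apart. No value within a series exists for LP245/+ compared with LPfl/+, in which Ugt2b38 (-1.96, standard error 1.02), Ugt2b37 (-1.36, standard error 0.75) and Sult5a1 (-1.26, standard error 0.90) were lower with unadjusted p of 0.0838, 0.102 and 0.19.

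Conjugation depends on the supply of the cosubstrates, and here 1 gene set LP+/+ apart from both other genotypes, Ugdh, the enzyme that makes UDP-glucuronic acid from UDP-glucose. Ugdh was at 97.1, 135 and 129 CPM in LP+/+ replicates 1 to 3, 80.8 and 76.8 in LPfl/+ replicates 1 and 2, and 71.0, 84.2 and 87.5 in LP245/+ replicates 1 to 3. All LP+/+ livers were above all livers of the other genotypes. Its log2 fold change was -0.57 (standard error 0.14, unadjusted p 0.00225, adjusted p 0.795) in LP245/+ and -0.61 (standard error 0.16, unadjusted p 0.00333, adjusted p 0.697) in LPfl/+, and -0.70 and -0.30 within the series of libraries. The 2 comparisons share the LP+/+ livers. Ugdh was the 1 gene with an unadjusted p below 0.05 in each comparison against LP+/+ among 5 genes of UDP-glucuronic acid supply, where 2.38% and 2.67% of all genes were lower at that threshold. Of the 6 genes of PAPS supply and removal tested, 0 passed it in LP245/+ compared with LP+/+ and 1 in LPfl/+, the PAPS synthase Papss2. Papss2 was at 187, 200.03 and 153 CPM in the LP+/+ livers, 129.9 and 124 in the LPfl/+ livers, and 191, 179 and 143 in the LP245/+ livers. Both LPfl/+ livers were lowest, with a log2 fold change of -0.50 (standard error 0.16, unadjusted p 0.0109, adjusted p 0.697) against LP+/+, and LP245/+ was higher than LPfl/+ by 0.43 (standard error 0.16, unadjusted p 0.0232). The other PAPS synthase, Papss1, had -0.18 (standard error 0.14) in LPfl/+ and -0.06 (standard error 0.12) in LP245/+.

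Of 7 genes of sulfate supply and transport tested, 1 passed an unadjusted p of 0.05 between LPfl/+ and LP+/+, against 6.89% of all genes. It was the sulfate transporter Slc26a1, with a log2 fold change of -0.30 (standard error 0.13). In LP245/+ compared with LP+/+, 0 of the 7 passed, against 5.93%. At an unadjusted p below 0.05 with edgeR, 0 of 6 hydrolases that remove the conjugates passed in any comparison. The shares of all genes were 5.93%, 6.89% and 8.51%. The smallest adjusted p of the hydrolases was 0.663 (edgeR). Of 6 transferases related to the UGTs or SULTs but outside the group, 1 passed in LPfl/+ compared with LP+/+, against 6.89% of all genes. In LP245/+ compared with LPfl/+ 1 passed, against 8.51%. Chst13 was higher in LPfl/+ than in LP+/+ (0.50, standard error 0.19) and Tpst2 lower in LP245/+ than in LPfl/+ (-0.29, standard error 0.10). Both act on proteins or glycans in the Golgi rather than on small molecules.

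The transcription factors and receptors that control UGT and SULT genes were counted the same way. Of 17 tested, counting the P450 reductase Por, 2 were lower at an unadjusted p below 0.05 in LP245/+ compared with LP+/+, against 2.38% of all genes, Esr1 (-0.50, standard error 0.15) and Nfe2l2 (-0.32, standard error 0.14), which encode the estrogen receptor and NRF2. In LPfl/+ compared with LP+/+, 2 were lower, against 2.67%, Ahr (-0.72, standard error 0.27) and Por (-0.89, standard error 0.32). In LP245/+ compared with LPfl/+, 5 of 17 were higher, against 4.07% of all genes, namely Por (1.26), Ahr (0.86), Hnf4a (0.39), Ppara (0.39) and Rxra (0.31). Ahr was at 43.2, 77.7 and 68.3 CPM in the LP+/+ livers, 47.6 and 29.0 in the LPfl/+ livers, and 67.9, 79.1 and 60.9 in the LP245/+ livers, with LP+/+ replicate 1 beside the LPfl/+ livers of its series and apart from LP+/+ replicates 2 and 3. Within the series the Ahr ratio was -0.08 in LP245/+ and -0.17 in LPfl/+, and that of Por 0.07 and 0.01. The genes of the receptors PXR (Nr1i2), CAR (Nr1i3), FXR (Nr1h4) and LXR (Nr1h3) had unadjusted p of 0.528, 0.836, 0.709 and 0.533 in LP245/+ compared with LP+/+, and Nr1i3 was at 9.95, 25.7 and 32.1 CPM in the LP+/+ livers, 12.2 and 14.8 in the LPfl/+ livers, and 22.3, 20.1 and 22.2 in the LP245/+ livers.

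Other targets of AHR, CAR, PXR and NRF2 that passed the unadjusted threshold against LP+/+ were all lower. Of 17 tested, 3 were lower at an unadjusted p below 0.05 in LP245/+ compared with LP+/+ and 6 in LPfl/+, against 2.38% and 2.67% of all genes, with 0 higher in either and a median of -0.24 and -0.35. Within the series of libraries the median was -0.54 in LP245/+, with 14 of 17 genes lower, but 0.07 in LPfl/+, with 5 of 16 lower and 11 higher than in LP+/+ replicate 1, in which Cyp2b10 had no count. Cyp3a11, named after its values were seen, had -0.59 pooled and 1.62 within the series in LPfl/+. The glutathione transferase Gstm3 was lower in both, with log2 fold changes of -0.67 (standard error 0.16) and -0.87 (standard error 0.19) and ratios of -0.78 and -0.62 within the series, with livers at 16.3, 22.2 and 19.4 CPM in the LP+/+ livers, 11.3 and 9.85 in the LPfl/+ livers, and 9.84, 14.6 and 12.0 in the LP245/+ livers. Nqo1, a quinone reductase, was lower in LPfl/+ (log2 fold change -1.14, standard error 0.30, -0.47 within the series), and Gclc, an enzyme of glutathione synthesis, lower in LP245/+ (log2 fold change -0.42, standard error 0.15, -0.54 within the series). The smallest adjusted p of the list was 0.795 and 0.697 (edgeR). Whether this list differs from the UGT and SULT genes was not tested.

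Clock genes were examined because the levels of some conjugating enzymes are known to follow the time of day. Of 16 tested, 10 had an unadjusted p below 0.05 between LP245/+ and LP+/+, with 6 higher in LP245/+ and 4 lower, against 5.93% of all genes, and 10 between LP245/+ and LPfl/+, 7 higher and 3 lower, against 8.51%. Between LPfl/+ and LP+/+ it was 1, Nfil3, against 6.89%. Dbp, a PAR bZIP factor, was at 0.815, 7.75 and 3.57 CPM in the LP+/+ livers, 2.29 and 1.82 in the LPfl/+ livers, and 23.7, 9.48 and 18.6 in the LP245/+ livers, higher in LP245/+ by 2.09 (standard error 0.59), and Arntl, which peaks at the opposite time of day, was lower (log2 fold change -1.05, standard error 0.29). Clock genes peak at different times of day, and over the 8 livers the 16 genes went both ways with the variable UGT and SULT genes. Their r ran from -0.76 to 0.65 with Ugt2b38 (11 negative), from -0.90 to 0.80 with Ugt2b37 (11 negative), from -0.67 to 0.46 with Sult5a1 (10 negative), from -0.74 to 0.55 with Ugt2b1 (11 negative) and from -0.41 to 0.61 with Ugt1a1 (5 negative). The part of the clock state in the differences of UGT and SULT genes was not tested.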

How the data were processed

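Per the study's methods, the authors extracted total RNA and made paired reads of 76 bases with a stranded library protocol. They aligned the reads with STAR to GRCm38 and deposited the raw count per gene. The annotation release and the strand setting are not given in the sources used here. Ensembl identifiers were matched to GENCODE M21 symbols, with 259 of 49585 unmatched. Counts of all 8 livers were fitted in edgeR 4.0.16 (R 4.3.3) with TMM factors, its default filter on low counts, quasi-likelihood tests and Benjamini-Hochberg adjustment over 16496 genes. DESeq2 1.42.0, other scalings and filters, 2 genotypes only, a covariate for the library series, a replicate block and leaving out each liver were tried. Within-series ratios are log2 ratios of mean CPM. Correlations used log2(CPM + 0.1). Genes were named by levels, p-values, spread between livers and family. The genes and lists were chosen with earlier results of these data known. The labels do not say more about the replicates than that they are separate mice, and the p-values measure the spread between these samples. The edgeR fit was tested on simulated counts. Promoter sequences came from RefSeq (GRCm38.p6).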

Additional observations from a re-analysis of the deposited data

How the results depend on the processing

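In LP245/+ compared with LP+/+, the count of UGT and SULT genes with an unadjusted p below 0.05 was 3 and became 5 with DESeq2 (2.7% of all genes), 8 without a filter on low counts (37 genes tested, 4.82%) and 5 with the series of libraries as a covariate (6.65%). Between LPfl/+ and LP+/+ it was 0 and became 3 without a filter (5.38%), 1 with the 2 genotypes alone (7.36%) and 4 with the covariate (5.37%), and between LP245/+ and LPfl/+ it was 1 and became 2, 5, 4 and 4 with DESeq2 (4.11%), no filter (6.54%), 2 genotypes (9.49%) and the covariate (5.27%). With the covariate the median log2 fold change of the last comparison was -0.12. Leaving out 1 liver gave counts of 2 to 4, 0 to 6 and 0 to 5, medians of -0.12 to 0.046, -0.15 to 0.069 and -0.078 to 0.16, and 0 to 0, 0 to 1 and 0 to 0 genes past the cutoff. Without LP+/+ replicate 1 the counts were 4 (6.70% of all genes), 6 (11.7%) and 4 (10.3%). Without LPfl/+ replicate 1 both comparisons with LPfl/+ were at 5 of 28 (5.62% and 6.71%). Without LP245/+ replicate 2 or 3 LPfl/+ against LP+/+ was at 1 (6.31%) or 2 (8.38%), and without LP+/+ replicate 2 or LP245/+ replicate 1 LP245/+ against LPfl/+ was at 2 (8.27%) or 0 (6.45%).

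Of 1047 single-gene values of the named genes, 924 were counted as unchanged, on the same side of an unadjusted p of 0.05. Newly past it were 59 values, and 17 no longer passed. A further 40 passed in neither fit but moved by their standard error or more. Genes not past it in the main fit counted among the 924 if they moved by less than their standard error, whatever their sign. Ugt2b5 in LP245/+ compared with LP+/+, for example, was -0.04 in the main fit and 0.09 without LP245/+ replicate 1. Directions turned, past that threshold, in 7 values. In LP245/+ compared with LP+/+, Ugt2b38 was 1.62 with the covariate and -1.38 to 1.62 over the fits without 1 liver. With the covariate Ugt1a1 was 0.50 between LPfl/+ and LP+/+, and between LP245/+ and LPfl/+ Ugt1a1 was -0.84, Sult5a1 2.24 and Sult1c2 -1.22. Sult2a7 was -1.20 to 0.96 in that comparison over the fits without 1 liver, the highest without LPfl/+ replicate 1. The covariate rests on LP+/+ replicate 1 alone, the only LP+/+ liver of its series.

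The labels number the livers in each genotype, and with the replicate block 2 of 26 genes, Ugt1a5 and Sult2a8, had an unadjusted p below 0.05 between LPfl/+ and LP+/+, where 6.0% of all genes did, and 0 passed the cutoff. Same-numbered livers had correlations of -0.08 to 0.03, so the numbers were not taken as pairs.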
